A study of Mus musculus with 8 samples.

Results

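Kallikreins are secreted serine proteases of the outer epidermis. Together with their inhibitor and their activator they were followed through 3 transcriptome comparisons of wild type and JunB cKO mice. The 10 genes were picked by name from 50981 gene symbols, with earlier results of these data known. They comprise the 8 kallikrein genes Klk5, Klk6, Klk7, Klk8, Klk10, Klk11, Klk13 and Klk14, the inhibitor gene Spink5 and the activator gene St14. All 10 were listed in each of the 3 tables, and none was removed by a filter on low values.

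In JunB cKO mice (labelled JunB -/-), floxed JunB alleles were deleted by Cre recombinase under the K14 promoter, which acts in basal epidermal cells, whereas dermal and immune cells keep the gene. Wild type mice are labelled JunB +/+, and both genotypes are of the C57BL/6 strain, with no age given in the labels. The first pair consists of untreated keratinocytes, the second of skin collected 4 days after hair plucking, which the labels call a skin biopsy although they enter keratinocyte as its tissue, and the third of wounded skin biopsies at day 30. The RNA of 3 samples was mixed in each group before libraries were made. The first and second pair have 1 library per genotype, and the wound pair has 2 per genotype, which the wound table merges into 1 value. Each gene therefore has 1 FPKM value (fragments per kilobase of transcript, scaled to the mapped fragments of the library) per genotype and table, without any replicate error. No test between genotypes was possible, and each difference below compares pools of RNA, not conditions. A gene was counted as higher or lower at a 2-fold difference, that is log2((cKO + 1)/(WT + 1)) of at least 1 or at most -1.

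In the epidermis, kallikreins are made as inactive precursors in the granular layer and secreted towards the stratum corneum, where they cleave the corneodesmosomes that hold corneocytes together. Klk5 can activate itself and other kallikreins, matriptase (St14) stands upstream of this cascade, and LEKTI, the product of Spink5, inhibits several kallikreins. Loss of SPINK5 causes Netherton syndrome, a disease with premature shedding of the stratum corneum. JunB is a subunit of the AP-1 transcription factor, which binds the palindrome TGANTCA.

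The 8 kallikrein genes lie on the plus strand of chromosome 7 within 160.8 kb, from Klk14 (start 43690418) to Klk5 (end 43851181) on GRCm38. St14 is located on the minus strand of chromosome 9 (31089402 to 31131853). RefSeq promoters of GRCm38.p6 were matched for 8 of the 10 genes, all but Spink5 and St14. The upstream bases of Klk6, Klk10 and Klk11 are shown because they were past the 2-fold limit after hair plucking and had a value in both genotypes. Each run starts 250 bases before the RefSeq start and ends before the first base of the GENCODE gene, on the plus strand, with capitals for matches on either strand of CACCC, the core of a KLF motif, and of TATAA, the TATA box.
Klk6 (chr7:43824294-43824498): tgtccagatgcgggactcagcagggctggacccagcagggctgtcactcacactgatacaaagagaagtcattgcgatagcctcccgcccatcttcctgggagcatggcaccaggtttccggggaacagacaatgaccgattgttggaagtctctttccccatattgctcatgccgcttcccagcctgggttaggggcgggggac
Klk10 (chr7:43780804-43781034): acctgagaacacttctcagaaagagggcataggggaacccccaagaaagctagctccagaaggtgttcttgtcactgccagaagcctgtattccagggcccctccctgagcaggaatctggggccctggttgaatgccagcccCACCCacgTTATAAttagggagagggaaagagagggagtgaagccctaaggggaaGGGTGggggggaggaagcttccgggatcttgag
Klk11 (chr7:43774367-43774603): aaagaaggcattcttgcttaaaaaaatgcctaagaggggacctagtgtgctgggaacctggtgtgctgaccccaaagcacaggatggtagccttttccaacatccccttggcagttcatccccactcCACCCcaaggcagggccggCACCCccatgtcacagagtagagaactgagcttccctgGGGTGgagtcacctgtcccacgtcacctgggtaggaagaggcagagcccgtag
TGANTCA was found on neither strand in the 250 bases before any of the 10 RefSeq starts of the 8 genes. Among all 32851 RefSeq promoters, 6.75% held it over the same length. The Klk5 window lies wholly within the GENCODE gene, as do the windows before a later RefSeq start of Klk6 and of Klk11. The CRE motif TGACGTCA (1.55% of promoters) and the grainyhead-like motif AACCNGTT (1.79% of promoters) were absent from all 10 windows as well. CACCC was present on either strand in 7 of the 10 windows, with a share of 52% among all promoters. By gene, 7 of the 8 had a match in at least a single window. In Klk6 this match is on the minus strand 15 bases before the RefSeq start, thus within the GENCODE gene, and is not part of the run above. TATAA was found for Klk10, where it overlaps its own reverse complement, and the share of all promoters was 22.8%. The motif AGATAA of GATA factors was found for Klk5, thus within the GENCODE gene, and in 9.99% of promoters. A match only describes letters, and no match leaves distant sites unseen.

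Several facts on the libraries bear on the low values. Junb was lower in JunB cKO in all pairs, with 268 and 31.5 FPKM in keratinocytes, 40.8 and 11.7 FPKM after plucking and 33.4 and 15.4 FPKM in wounds. The reads behind 1 FPKM of a 1-kb gene (length beyond 200 bases) were estimated at 16.9 in wild type but 4.97 in JunB cKO keratinocytes, at 16.3 and 12.9 after plucking, and at 43.3 and 40 in wounds. Olfactory, vomeronasal and taste receptor genes, which skin should lack, were above 0 for 69 of 1453 in wild type but for 1251 in JunB cKO keratinocytes. Their median in JunB cKO keratinocytes was 0.543 FPKM. In the other 4 columns, 11 to 172 of these genes were above 0. A value of 0 may be a failed estimate, since Gapdh is also listed at 0 in both keratinocyte columns. Of the suprabasal markers, Krtdap was abundant in all 6 columns (2158 to 10699.8 FPKM), whereas Krt2 did not exceed 3.99 FPKM in any. In bulk RNA, fewer cells of a type and less RNA per cell cannot be told apart.

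First, the level of each gene was compared between genotypes in untreated keratinocytes. 3 of the 10 genes were higher in JunB cKO, namely Klk13, Klk6 and Klk14, and none was lower. Across all 26457 loci, 9.31% were higher and 0.858% were lower, and these shares were 15.4% and 1.42% among loci with at least 1 FPKM in either genotype. The median log2 ratio of the 10 genes was 0.33, with a range from -0.15 to 2.06, against 0.13 over all loci and -0.15 over the 11995 loci with at least 1 FPKM in both genotypes. The 3 higher genes were the least abundant of the 10 in wild type.

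**Figure D1:**
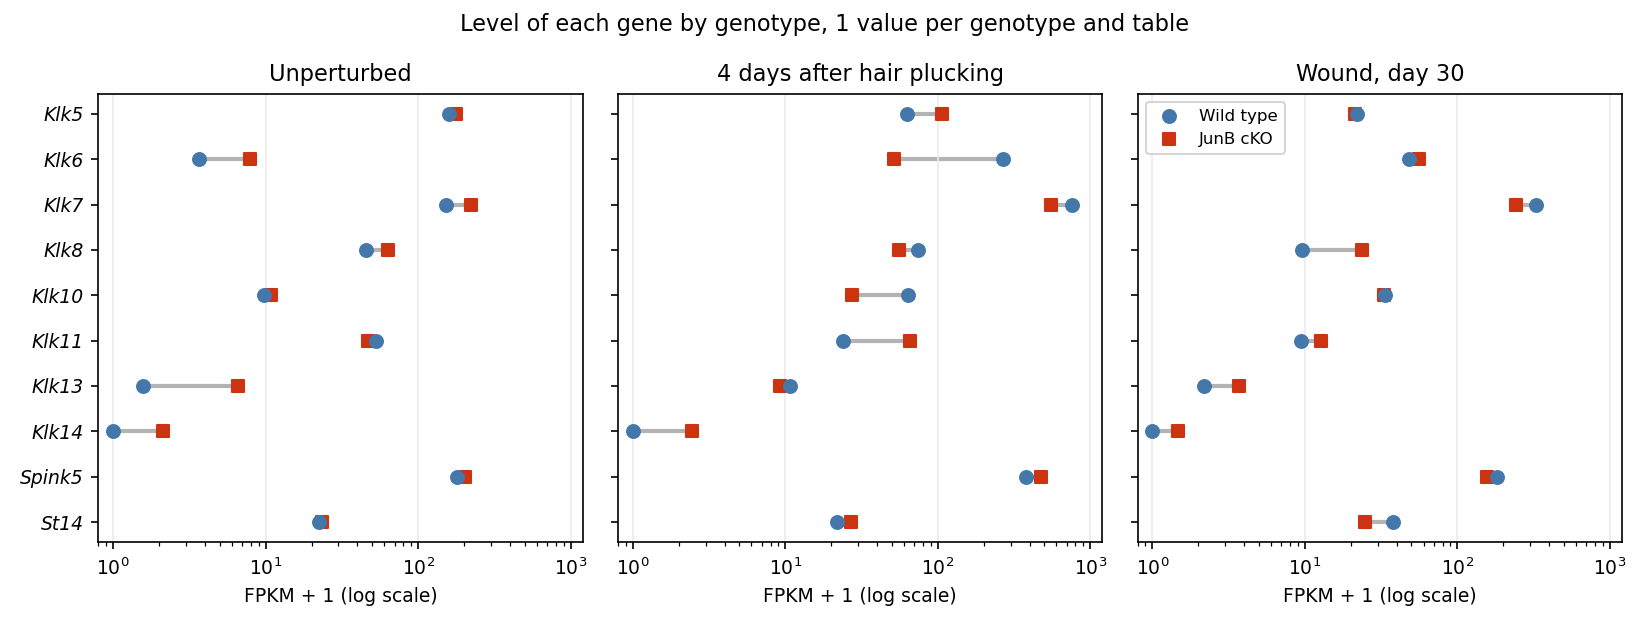
FPKM + 1 on a log scale for the 10 genes in wild type (blue circles) and JunB cKO (red squares), 1 point per genotype and table, so that no error bars can be drawn. After plucking, Klk6 stands at 268 FPKM for wild type but at 50.7 FPKM for JunB cKO, and Klk14 is at 0 in wild type in all 3 panels.

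Klk5, the trypsin-like kallikrein at the head of the cascade, had 158 FPKM in wild type and 177 FPKM in JunB cKO keratinocytes. Klk7, the chymotrypsin-like kallikrein that cleaves corneodesmosin, had 152 FPKM in wild type and 222 FPKM in JunB cKO keratinocytes. By rank within its column, wild type Klk5 stood at 309 and JunB cKO Klk5 at 250, while Klk7 ranked 319 and 207. Their log2 ratios of 0.16 and 0.54 stayed below the 2-fold limit.

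Klk8 (neuropsin) had 44.4 FPKM in wild type and 62.3 FPKM in JunB cKO keratinocytes. Klk11, another trypsin-like kallikrein, had 51.5 FPKM in wild type and 46.3 FPKM in JunB cKO keratinocytes, and no other of the 10 genes had a negative ratio there, although its log2 ratio of -0.15 turned to 0.0012 when centred on expressed loci. Klk10 reached 8.77 FPKM in wild type and 9.91 FPKM in JunB cKO keratinocytes. None of these differed by 2-fold.

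Klk6 (neurosin), which is also known from the nervous system, had 2.66 FPKM in wild type and 6.93 FPKM in JunB cKO keratinocytes, a log2 ratio of 1.12. About 54 and 41 reads stand behind these values. The ratio of 2.61 had an exact binomial 95% interval from 1.68 to 3.95, and these intervals cover counting error only. Klk13 had 0.569 FPKM in wild type and 5.54 FPKM in JunB cKO keratinocytes, or about 15 and 44 reads. Its log2 ratio of 2.06 was the largest of the 10 in this pair, with an interval of the ratio from 5.45 to 19.3. No receptor gene of the JunB cKO column reached the level of Klk13 or Klk6.

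Klk14 had 1.13 FPKM in JunB cKO keratinocytes but is listed at 0 for wild type. This value corresponds to 6 reads, and 15.3% of the 1453 receptor genes had the same or a higher FPKM in that column. In wild type, 3 reads would have given 0.166 FPKM. The Klk14 value is thus within the range of genes that skin should lack, and their part in the result was not tested.

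The inhibitor gene Spink5, on chromosome 18, had 178 FPKM in wild type and 202 FPKM in JunB cKO keratinocytes. St14 had 21.4 FPKM in wild type and 22.3 FPKM in JunB cKO keratinocytes. With log2 ratios of 0.18 and 0.06, both the inhibitor and the activator were close to equal in the pools, whereas sebaceous markers were lower for 4 of 7 genes. Fibroblast markers, which keratinocytes should lack, summed to 13.7 FPKM in wild type and to 12.5 FPKM in JunB cKO, and none of the 10 hair follicle markers found differed by 2-fold. Of the 12 suprabasal and granular markers, 1 was higher in JunB cKO keratinocytes, namely Lor, the gene of the cornified envelope protein loricrin, with 46.99 and 213 FPKM (log2 ratio 2.16), and none was lower. The part of this difference in the kallikrein values was not tested.

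Next, skin was compared 4 days after hair plucking. 2 genes, Klk11 and Klk14, were higher in JunB cKO, while Klk6 and Klk10 were lower. Of all 47990 loci, 6.50% were higher and 5.65% were lower. Among loci with at least 1 FPKM in either genotype these shares were 18.4% and 16%, close to the 2 of 10 genes seen in each direction. The median log2 ratio of the 10 genes was 0.04, with a range from -2.38 to 1.47, and the median over all loci was 0.

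Klk6 had 268 FPKM in wild type and 50.7 FPKM in JunB cKO plucked skin. On the scale with 1 FPKM added, its log2 ratio of -2.38 was the largest difference of the 10 genes in any table, whereas by the plain ratio Klk13 in keratinocytes (9.75) differed more than Klk6 here (0.19). The Klk6 value rests on about 5209 and 780 reads (interval of the ratio from 0.176 to 0.205). Klk6 ranked 306 in wild type but 2053 in JunB cKO plucked skin. Klk10 had 62.3 FPKM in wild type and 26.2 FPKM in JunB cKO plucked skin, a log2 ratio of -1.22.

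Klk11 showed the opposite, with 22.7 FPKM in wild type and 64.7 FPKM in JunB cKO plucked skin (log2 ratio 1.47). The ratio of 2.85 had an interval from 2.53 to 3.20. Klk11 and Klk10 are neighbours, with starts 84.2 kb and 90.6 kb from that of Klk14, yet they differed in opposite directions. In this pair both stand in 1 locus entry of 10 genes, together with Klk8, Klk13 and Klk14. The part of this shared entry in their values was not tested. Klk5 had 61.8 FPKM in wild type and 105 FPKM in JunB cKO plucked skin, a log2 ratio of 0.75 below the limit.

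Klk7 was the most abundant kallikrein in plucked skin, with 757 FPKM in wild type and 549.9 FPKM in JunB cKO. Klk8 had 72.9 FPKM in wild type and 54.7 FPKM in JunB cKO plucked skin. Klk13 had 9.73 FPKM in wild type and 8.21 FPKM in JunB cKO plucked skin. These 3 genes had log2 ratios of -0.46, -0.41 and -0.22 and did not reach 2-fold.

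Klk14 was again listed at 0 in wild type, and it had 1.45 FPKM, or 20 reads, in JunB cKO plucked skin. In wild type, 3 reads would have given 0.172 FPKM. In the JunB cKO column, 10 of 1449 receptor genes (0.69%) had this level or more. Of the 75-base words in the Klk14 transcript, 5 of 1172 occur in other genes too, whereas no such word was found for the other 9 genes.

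Spink5 had 381 FPKM in wild type and 475 FPKM in JunB cKO plucked skin (log2 ratio 0.32). St14 had 20.8 FPKM in wild type and 25.9 FPKM in JunB cKO plucked skin (log2 ratio 0.31). Both ratios were positive and below the limit.

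The 2 plucked pools also differed in marker genes of other cells. All 11 hair follicle markers were higher in JunB cKO, with a sum of 66.3 FPKM in wild type and 703 FPKM in JunB cKO. Fibroblast markers were lower for 3 of 6 genes, with sums of 5109 and 1856 FPKM. Leukocyte markers were lower for 5 of 7 genes (400.2 and 174 FPKM), and skeletal muscle markers for 4 of 4 (196 and 25.04 FPKM). In addition, 2 of 5 adipocyte, 1 of 3 endothelial and 1 of 7 sebaceous markers were lower, and 2 of 7 basal markers were higher. None of the 12 suprabasal and granular markers, the layers in which kallikreins are made, was 2-fold higher or lower in plucked skin. The part of these differences in the values of Klk6, Klk10 and Klk11 was not tested.

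**Figure D2:**
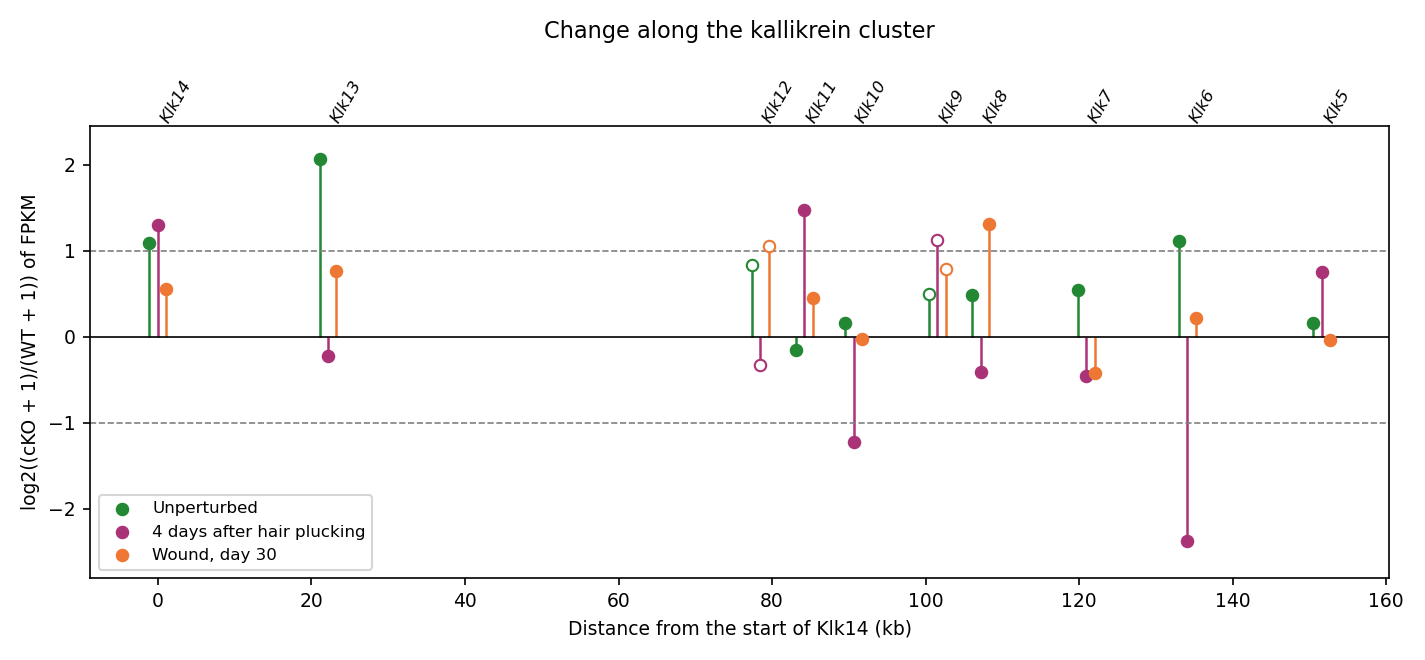
log2((cKO + 1)/(WT + 1)) of FPKM against the distance in kb from the start of Klk14 for the 8 kallikreins studied (filled) and for Klk12 and Klk9 between them (open), with dashed lines at 1 and -1. After plucking, Klk6 (-2.38) and Klk10 (-1.22) point down and Klk11 (1.47) points up, so that no common direction runs along the cluster.

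Finally, the pair of wounds at day 30 was examined. Klk8 was higher in JunB cKO, and no gene was lower. Of all 46726 loci, 2.16% were higher and 1.98% were lower, or 5.68% and 5.19% among loci with at least 1 FPKM in either genotype. The median log2 ratio of the 10 genes was 0.09, with a range from -0.61 to 1.31, and that of all loci was 0.

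Klk8 had 8.53 FPKM in wild type and 22.6 FPKM in JunB cKO wounds, with a log2 ratio of 1.31. About 414 and 1016 reads stand behind these values, and the ratio of 2.66 had an interval from 2.37 to 2.99. Each value merges 2 libraries, and the share of values near whole reads was lowest in this pair. It was 57.3% for wild type and 59.9% for JunB cKO, so these reads and their interval are rough. In wounds Klk8 also shares its locus entry with other genes. Klk8 was at the lowest of its 6 values in wild type wounds. Klk11 had 8.42 FPKM in wild type and 11.8 FPKM in JunB cKO wounds (log2 ratio 0.45).

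Klk7 had 325 FPKM in wild type and 242 FPKM in JunB cKO wounds. Klk5 had 21.0 FPKM in wild type and 20.4 FPKM in JunB cKO wounds. Klk6 had 47.3 FPKM in wild type and 55.2 FPKM in JunB cKO wounds. Both wound values of Klk6 were close to the 50.7 FPKM of the plucked JunB cKO pool and below the 268 FPKM of the plucked wild type pool.

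Klk10 had 32.7 FPKM in wild type and 32.0 FPKM in JunB cKO wounds. Klk13 had 1.17 FPKM in wild type and 2.67 FPKM in JunB cKO wounds, and its log2 ratio of 0.76 stayed below the limit because of the added 1 FPKM. Klk14 had 0.463 FPKM, or about 20 reads, in JunB cKO wounds, while wild type is listed at 0. In wild type wounds, 3 reads would have given 0.0647 FPKM. In the JunB cKO wound column, 15 of 1448 receptor genes (1.04%) had this level or more. Klk14 was thus listed at 0 in all 3 wild type columns and above 0 in all 3 JunB cKO columns. Other loci were at 0 in wild type with at least 1 FPKM in JunB cKO as well, a level that Klk14 did not reach in wounds. They numbered 1560 of 26457 in keratinocytes, 1493 of 47990 after plucking and 297 of 46726 in wounds. The reverse was seen for 87, 1048 and 446 loci. How many genes share the pattern of Klk14 over all 3 pairs was not counted, so these numbers do not show how unusual it is.

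Spink5 had 182 FPKM in wild type and 156 FPKM in JunB cKO wounds. St14 had 36.6 FPKM in wild type and 23.6 FPKM in JunB cKO wounds, and its log2 ratio of -0.61 was the lowest of the 10 genes in this pair. Other marker lists differed in this pair too, with 4 of 7 sebaceous markers higher, and with Ivl and Tgm3 of the suprabasal markers and Krt28 and Tchh of the hair follicle markers lower in JunB cKO.

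The levels of the kallikreins were then set side by side over the 6 columns. The 3 tables were normalised separately and stem from different tissue, so these levels are a description. Some loci also have other bounds in the keratinocyte pair. That of Klk5 starts at 43842269 there but at 43841971 after plucking and in wounds. The part of such differences in these levels was not tested. The 8 kallikreins summed to 418 FPKM in wild type and to 531 FPKM in JunB cKO keratinocytes. After plucking the sum amounted to 1255 FPKM for wild type and to 861 FPKM for JunB cKO. In wounds the sum came to 444 FPKM for wild type and to 387 FPKM for JunB cKO.

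In wild type keratinocytes, Klk5 (37.7%) and Klk7 (36.5%) contributed nearly equal shares of this sum. In JunB cKO keratinocytes, the share of Klk7 was 41.9% and that of Klk5 was 33.3%. After plucking, Klk7 held 60.4% of the wild type sum and 63.9% of the JunB cKO sum. The share of Klk6 after plucking was 21.3% for wild type but 5.89% for JunB cKO. In wounds, Klk7 held 73.2% of the wild type sum and 62.5% of the JunB cKO sum.

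**Figure D3:**
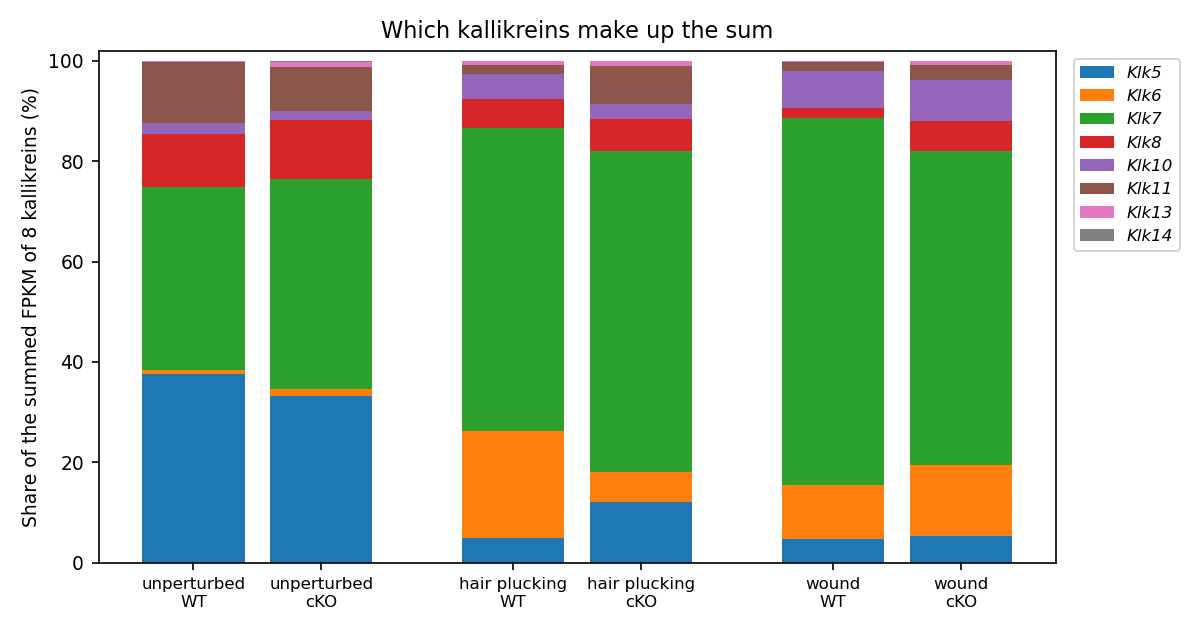
Share in percent of the summed FPKM of the 8 kallikreins for each genotype in keratinocytes, plucked skin and wounds, 1 bar per column of the tables. Klk5 makes up 37.7% in wild type keratinocytes but 4.93% in wild type plucked skin, where Klk7 holds 60.4%.

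The FPKM of Spink5 relative to the kallikrein sum came to 0.426 for wild type and to 0.381 for JunB cKO keratinocytes. This ratio amounted to 0.304 for wild type and to 0.551 for JunB cKO plucked skin. There Spink5 had 381 and 475 FPKM and the kallikrein sum was 1255 and 861 FPKM, both differences below 2-fold. Within that sum, Klk6 had 268 FPKM in wild type and 50.7 FPKM in JunB cKO, and Klk7 had 757 and 549.9 FPKM. Klk8, Klk10 and Klk13 also had less FPKM in JunB cKO, whereas Klk5, Klk11 and Klk14 had more. In wounds the ratio of Spink5 to the sum reached 0.409 for wild type and 0.403 for JunB cKO. These are ratios of transcript levels and not of proteins.

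Klk6 varied most over the 6 columns, with a highest value 100.7 times the lowest. Next came Klk13 with a factor of 17.1. Klk5 (8.68), Klk8 (8.56), Klk11 (7.69), Klk10 (7.11) and Klk7 (4.97) followed. Spink5 (3.05) and St14 (1.76) varied least among the genes that were above 0 in all columns.

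The mean profile of the 8 genes with at least 1 FPKM in all 6 columns was compared with 9309 other genes by Pearson's r of log2(FPKM + 1). The most similar genes were Rps19bp1 (r = 0.99), Gimap9 (0.99), Mcm6 (0.99), Hrnr (0.98) and Alg2 (0.98). Hrnr encodes hornerin, a protein of the cornified envelope, but no other of these genes is on a list used here. The best of 9309 genes over 6 points can have an r near 1 without any shared role. The 6 columns come in 3 pairs from different tissue and depth, so these values are a description over 6 points per gene. Among the 8 genes themselves, r with the mean profile was 0.95 for Spink5 and 0.89 for Klk7 but 0.25 for Klk5 and -0.34 for St14. Each of them is part of that mean, which raises its own r, so these values cannot be set against those of other genes.

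The other genes of the protease pathway were taken from lists. Of the 26 other epidermal proteases found in the keratinocyte table, Casp14, which processes filaggrin, was higher (48.5 FPKM in wild type and 125 FPKM in JunB cKO) and none was lower. After plucking, 3 of 24 were higher and 4 were lower. The higher ones were Capn12 (0.8 and 5.99 FPKM), Furin (33.1 and 83.6 FPKM) and Casp14 (34.9 and 79.7 FPKM). The lower ones included Ctsc (166 and 41.7 FPKM), which encodes cathepsin C, Tmprss11e (11.97 and 4.37 FPKM) and the urokinase gene Plau (17.6 and 7.03 FPKM). In wounds, none of the 24 proteases was 2-fold higher or lower. Prss8, the membrane-bound protease prostasin that acts together with matriptase, had 22.0 and 16.8 FPKM in keratinocytes, 22.6 and 17.2 FPKM after plucking, and 21.3 and 20.0 FPKM in wounds.

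None of 16 other protease inhibitors was 2-fold higher or lower in keratinocytes. Of 17 after plucking, 3 were higher and 4 were lower. Cst6, a cystatin M/E gene whose product inhibits cathepsins, had 267 FPKM in wild type and 70.6 FPKM in JunB cKO plucked skin. Cstb, another cystatin, had 199 FPKM in wild type and 62.6 FPKM in JunB cKO plucked skin. In wounds, Slpi, the secretory leukocyte peptidase inhibitor, was higher (1.74 and 5.90 FPKM) and none was lower. After plucking, 12.5% of the other proteases were higher and 16.7% were lower, and for the inhibitors these shares were 17.6% and 23.5%. Over all loci the shares were 6.50% and 5.65%, or 18.4% and 16% among loci with at least 1 FPKM in either genotype. Genes on both sides of the limit after plucking were thus not particular to kallikreins or to protease genes.

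Among 17 substrates and receptors, Flg (11.3 and 46.1 FPKM) was higher and Dsg1b (68.1 and 32.9 FPKM) was lower in JunB cKO keratinocytes. Dsg1b encodes a desmoglein of the corneodesmosome precursor. After plucking, Dsg1c was higher (0.457 and 2.02 FPKM), whereas Il1b (6.43 FPKM) and Tslp (2.24 FPKM) had a value in wild type but are listed at 0 for JunB cKO. In wounds, Il1b was higher (4.25 and 13.7 FPKM). Cdsn, the corneodesmosin gene and a substrate of Klk5 and Klk7, had 154 and 179 FPKM in keratinocytes, 80.5 and 86.5 FPKM after plucking and 51.1 and 42.7 FPKM in wounds. F2rl1, the receptor PAR2 that Klk5 can activate, had 45.2 and 37.7 FPKM, 31.0 and 22.4 FPKM and 17.7 and 15.7 FPKM in the same order. Both were below 2-fold in all 3 pairs.

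**Figure D4:**
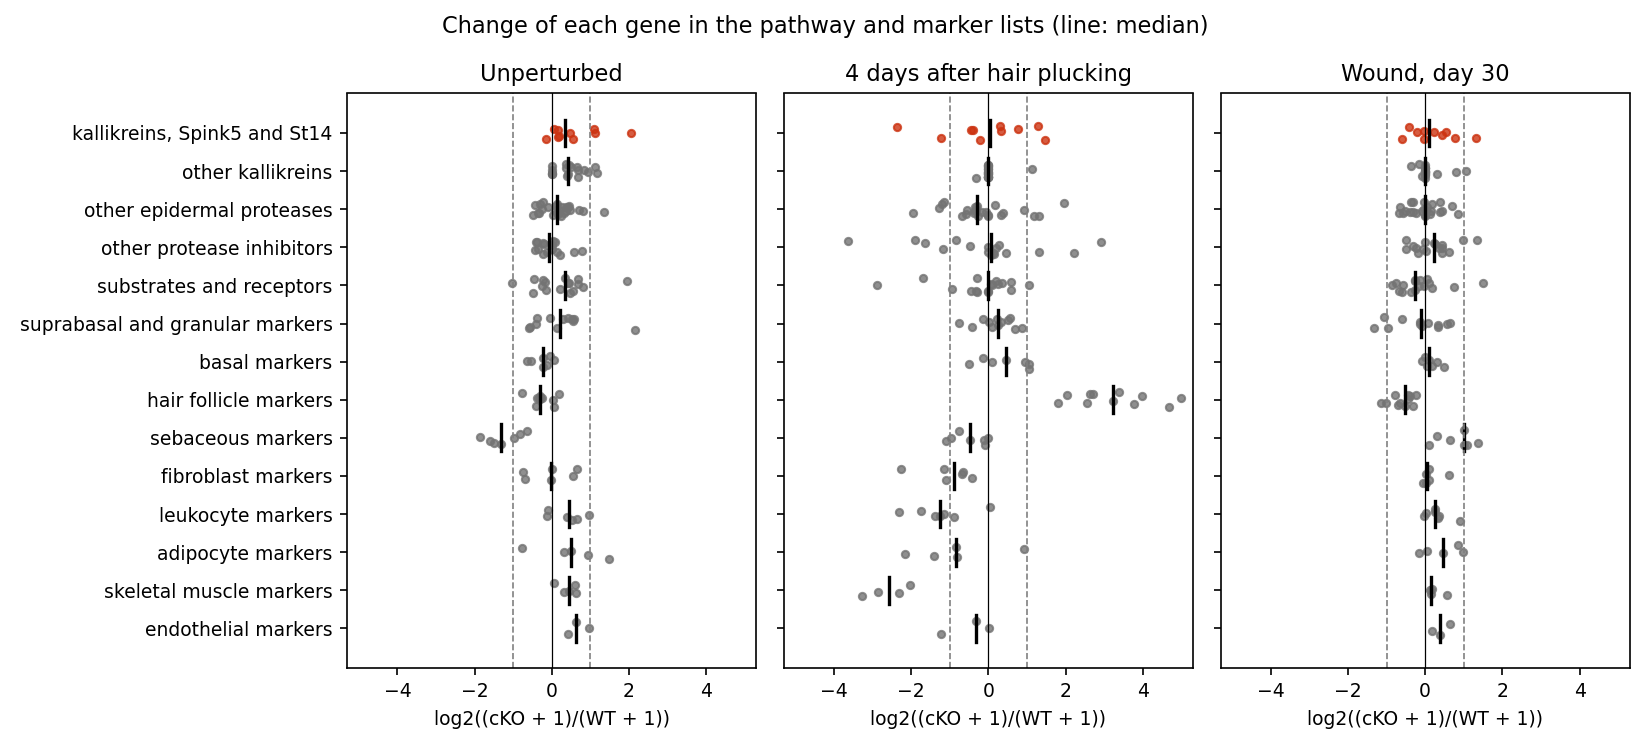
log2((cKO + 1)/(WT + 1)) of each gene (points) and median (black line) for the 10 genes (red) and for the pathway and marker lists (grey), with dashed lines at 1 and -1. In plucked skin the 10 genes spread on both sides of 0 around a median of 0.04, whereas all 11 hair follicle markers lie above 1.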

How the data were processed

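The deposited tables hold FPKM values that the authors calculated with Cufflinks and Cuffdiff, 1 per genotype and gene locus, after adapter and quality trimming and alignment to GRCm38 (mm10 per the labels). They also hold the authors' fold changes, test statistics, p-values and q-values, which were not used. The condition of the plucking and wound tables is known from their names, and Co and Mut were read as control and mutant per the labels. Where a symbol occurred at more than 1 locus, only its locus of highest total FPKM over both genotypes entered. Ratios are log2((cKO + 1)/(WT + 1)) with a 2-fold limit, over 26457, 47990 and 46726 loci. Since the wound table merges libraries, no test was carried out.

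Reads were estimated from genes with 1 GENCODE transcript of 800 to 4000 bases, whose FPKM times (length minus 200) falls in steps of 1 read. Between 57.3% and 93.6% of values were whole within 0.1. Counting intervals are exact (Clopper-Pearson, 95%). Longest transcripts were used, so reads are approximate where a gene has several. They are also approximate in the keratinocyte pair, where some loci, such as that of Klk5, start after the GENCODE gene does. In simulated tables of 26457, 47990 and 46726 loci, 200 of 200 genes changed 4-fold were recovered in each. The changed genes were all well expressed in wild type and carried only a small error, without counting error or uneven depth. Recovery was thus expected from the setting, and it checks the arithmetic of the calls only. It says nothing about genes with few reads, such as Klk6, Klk13 and Klk14 in keratinocytes.

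The genes and lists were chosen with earlier results of these data known. Named were all 10 genes, Junb, per list and table up to 3 genes with the largest rise and fall past 2-fold plus the most abundant, and the 5 genes most like the mean profile. Prss8, Cdsn, F2rl1 and the background genes were named in addition, after their values had been seen, and some genes that the rule picks are given by counts only. Python 3.11.15, numpy 2.4.6, pandas 2.3.3, scipy 1.17.1 and matplotlib 3.10.9 were used.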

Additional observations from a re-analysis of the deposited data

Results flagged for a closer look

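Klk6 differed in opposite directions past 2-fold in 2 of the pairs. Its log2 ratio was 1.12 in keratinocytes, where JunB cKO was higher, and -2.38 after hair plucking, where JunB cKO was lower. The difference between the pairs was not tested, since each holds 1 value per genotype. The keratinocyte ratio rests on about 54 and 41 reads, the plucking ratio on about 5209 and 780 reads.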

How the results depend on the processing

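The number of genes 2-fold higher in wounds was 3 with a pseudocount of 0.1 and also with 0.01, since Klk13 and Klk14 then passed, and 2 with a 1.5-fold limit. With this limit, 1 gene, St14, was lower in wounds. All other counts were within 1.5 times of the values given, and the 3 medians moved by less than the log2 of 1.5, under other pseudocounts, centring on expressed loci, a minimum of 1 FPKM, sums over loci, status OK only and subtraction of the receptor median. Of 208 alternative log2 ratios of single genes, 197 stayed close and 11 moved. Many of the 197 could not move, so their number does not measure stability. A minimum of 1 FPKM and status OK only drop genes, and sums over loci left every ratio as it was. The receptor median was 0 after plucking and in wounds, so its subtraction changed nothing there. With a pseudocount of 0.1, 5 ratios moved and 25 stayed close, and the same numbers held with 0.01. No called ratio changed sign, but that of Klk11 in keratinocytes, which was below 2-fold, went from -0.15 to 0.0012 on centring. The median in wounds turned from 0.09 to -0.03 with a minimum of 1 FPKM or status OK only. Klk14 in keratinocytes fell short of 2-fold (0.66) once the receptor median was subtracted. No paired analysis was possible because each table holds 1 value per genotype, and for the same reason leaving out single libraries was not run. Depth limits the low genes, above all in JunB cKO keratinocytes with 4.97 reads per FPKM and kb.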

Other observations

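Klk9 and Klk12 lie between the kallikreins studied. Klk9 had 2.55 FPKM in wild type and 6.76 FPKM in JunB cKO plucked skin, a log2 ratio of 1.13. Its neighbours Klk10 and Klk8 were at -1.22 and -0.41 in this pair. Klk12 had 0.0756 FPKM in wild type and 1.24 FPKM in JunB cKO wounds. In JunB cKO keratinocytes, Klk4 (1.16 FPKM) and Klk1b8 (1.24 FPKM) were above 0 while listed at 0 in wild type, and 14.1% and 13.4% of receptor genes reached these levels in the same column. In the plucking and wound tables, Klk14, Klk13, Klk11, Klk10 and Klk8 share a locus entry with other genes, 10 in all, whereas each has its own in the keratinocyte table. One of these, 2310002F09Rik, picked after its values were seen, had 1.84 FPKM in wild type and 7.69 FPKM in JunB cKO plucked skin. The shared entry covers Klk10, Klk11 and Klk14, called after plucking, and Klk8, called in wounds. St14 stands in a locus of 2 entries in both of these pairs.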
